A study of Mus musculus with 18 samples.

Results

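The comparison is of Kdm7a-deficient with control RAW264.7 cells that were left without stimulation (M0) for 48 h. It rests on 6 of the 18 libraries of the series, chosen by their sample labels: 3 of cells given a control guide RNA, with the genotype given as wild type, and 3 of cells given a guide RNA against Kdm7a, with the genotype given as Kdm7a knockout. All libraries came from poly(A) RNA of the same line, cultured in medium with serum, and no polarizing agent was added to these 6. The knockout cells were described as 1 line made with CRISPR/Cas9, and whether it was grown from 1 clone is not given in the sources used here. With 1 knockout line and 1 control line, other differences between the lines cannot be told apart from those of the gene. The labels do not say that the 3 libraries of a group were separate cultures: the p-values are therefore based on the spread among the libraries alone, and that spread may be technical. It was estimated within the groups of all 18 libraries together, and the filter for testing counted all 18. The unstimulated fold changes use the 6 alone.

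RAW264.7 is a mouse macrophage-like line from a virus-induced leukemia that is widely used as a stand-in for resting and activated macrophages. Kdm7a is a demethylase of the Jumonji family: its plant homeodomain finger binds an active mark on histone H3, and its catalytic domain removes methyl groups that go with silent chromatin. Resting macrophages keep low levels of inflammatory genes, take up debris through scavenger and lectin receptors, and sense their surroundings through chemokine, complement and purine receptors. The cells expressed the defining genes of macrophages. Spi1, the lineage transcription factor PU.1, stood at 294 to 340 TPM in the 6 libraries, and Csf1r, the receptor for the macrophage growth factor, at 432 to 586 TPM. Of the 28 macrophage identity genes, Maf and Mertk were listed at 0 in all 6. Values are TPM, transcript abundances corrected for gene length and scaled to the same total in every library, so the depth of each library is unknown. Within a group, pairs of libraries had a Pearson correlation over genes of 0.9948 to 0.996, and pairs of 1 control and 1 knockout library of 0.9887 to 0.9908.

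Kdm7a RNA was lowered but not lost in the knockout cells. Kdm7a (chr6:39136620-39206773, GRCm38) stood at 11.29, 11.03 and 10.96 TPM in the control libraries and at 3.33, 3.25 and 3.52 TPM in the knockout libraries. All 3 knockout libraries lay below all control libraries, and the knockout mean was 0.303 times the control mean (log2 fold change -1.47 ± 0.07 SE, adjusted p = 5.43e-12). Adjusted p-values here and below are from limma, a linear model fitted on log2(TPM + 1) over all 11548 tested genes, with Benjamini-Hochberg adjustment. A TPM over the whole gene does not show the edited site or whether protein was made. The closest relatives of the enzyme, Phf8 and Phf2, did not pass the test: Phf8 averaged 46.3 ± 0.41 TPM in control libraries against 48.4 ± 0.99 TPM in knockout ones (SD, n = 3 each, as for all means below; adjusted p = 0.463), and Phf2 averaged 24.97 ± 1.0 and 25.5 ± 0.15 TPM (adjusted p = 0.772). Of the 12 other tested genes within 500 kb of Kdm7a, 3 passed, a share (25%) near the 19.2% of all tested genes that passed. Tbxas1, thromboxane synthase, was higher in knockout cells (0.87, 1.10 and 0.74 TPM against 1.89, 1.53 and 2.21 TPM, adjusted p = 0.000647). Hipk2, a nuclear kinase, was higher (log2 fold change 0.25, adjusted p = 0.0217) and Dennd2a, an exchange factor for a Rab protein, lower (-0.27, adjusted p = 0.0263). Each of these last calls was lost without any 1 of 4 libraries, the highest p being 0.0881 for Hipk2 without the first knockout library and 0.0979 for Dennd2a without the third.

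In the whole transcriptome, small shifts were many and large ones few. At an adjusted p below 0.05, 2217 genes passed (19.2% of those tested), 1023 higher in knockout cells (8.86%) and 1194 lower (10.3%). Over all genes in the test the median log2 fold change came to 0.0046. Of the genes that passed, 52.8% had changed by less than 1.2-fold. A change of 2-fold or more was found in 103 (0.892%), 51 higher (0.442%) and 52 lower (0.45%). None of these 103 overlapped between the groups, where 37.3% of all tested genes did not. The genes that rose 2-fold started from low levels, with a median of 0.863 TPM in control cells, and those that fell 2-fold from a median of 5.07 TPM, against 25.1 TPM over all tested genes. Because 1 TPM was added before the logarithm, fold changes of such low genes are understated, and the 2-fold count moved with that amount: 224 genes with 0.1 TPM added and 22 with 5 TPM.

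**Figure D1:**
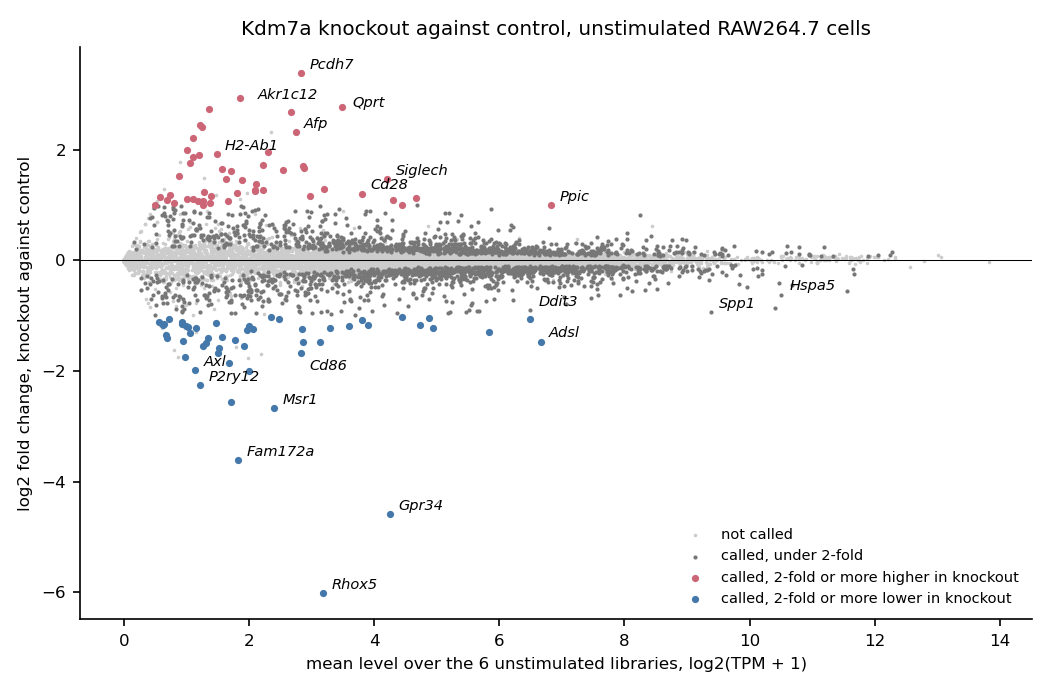
Log2 fold change of each of the 11548 tested genes (vertical axis, knockout against control, M0) against its mean log2(TPM + 1) over the 6 libraries (horizontal axis). Light grey points did not pass the test and dark grey points passed with a change below 2-fold. The 51 red and 52 blue points rose or fell by 2-fold or more, and they lie mostly at low levels.

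The largest rises did not belong to one pathway. Pcdh7 (chromosome 5), an adhesion protein of the protocadherin family, stood at 1.30, 1.23 and 1.10 TPM in control and at 21.5, 22.6 and 22.4 TPM in knockout cells. The means differed 18.3-fold, and the log2 fold change of 3.39 ± 0.06 was the largest rise of all on the log2(TPM + 1) scale. By the ratio of means, genes from lower control levels rose more, among them Gm5424 (28.6-fold), Armcx2 (25.6-fold) and Zfp651 (18.8-fold). Afp (chromosome 5), the fetal serum protein alpha-fetoprotein, rose from 2.35, 1.78 and 1.91 TPM to 14.2, 15.5 and 12.7 TPM, and Cp, the ferroxidase ceruloplasmin, from 1.38, 1.93 and 1.42 TPM to 7.05, 7.70 and 7.66 TPM. Trf, which encodes the iron carrier transferrin, went from 5.24 ± 0.24 to 11.3 ± 0.70 TPM (adjusted p = 0.00558). All 3 are best known as secreted proteins of liver cells. Il11ra1, the interleukin 11 receptor chain, rose 5.76-fold (log2 fold change 1.96 ± 0.12, adjusted p = 2.87e-10), and Capn1, a calcium-dependent protease, 3.96-fold (1.63 ± 0.07, adjusted p = 2.21e-12). Prodh, the mitochondrial enzyme that opens proline breakdown, stood at 1.66, 1.35 and 2.08 TPM in control and at 5.72, 5.78 and 6.50 TPM in knockout cells. Rises of about 2-fold from over 10 TPM included Ppic, an endoplasmic reticulum cyclophilin (79.5 ± 2.0 to 160 ± 4.4 TPM), Lacc1, a purine enzyme of macrophages (17.1 ± 0.28 to 35.2 ± 1.1 TPM), Kctd17, a ubiquitin ligase adaptor (16.1 ± 0.95 to 36.6 ± 1.3 TPM), and Socs3, the feedback inhibitor of cytokine receptors that signal through STAT3 (14.4 ± 0.97 to 30.0 ± 3.1 TPM). Their adjusted p-values ran from 4.66e-14 for Ppic to 1.69e-10 for Kctd17. Lacc1 came to 0.99 on the log2(TPM + 1) scale, just under the 2-fold line, and Socs3 to 1.01, just over it.

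Some genes appeared that control cells did not list. Tmsb15b1, a beta-thymosin gene on the X chromosome, was at 0 in all 3 control libraries and at 6.11, 7.16 and 4.12 TPM in knockout cells. By a rule set after the values were seen (1 TPM or more in every library of one group and 0.1 TPM or less in every library of the other), 5 genes were present only in the knockout group: Tmsb15b1, the overlapping Tmsb15l, Magohb, Laptm4b and Aplp1. Magohb, a copy of an exon junction complex subunit, was at 0 in the control libraries and at 5.05, 3.95 and 4.45 TPM in knockout libraries. Both beta-thymosin genes and Magohb have near-identical copies, so their reads could have been assigned to either copy, and these values are uncertain. The same holds for Akr1c12, an aldo-keto reductase, at 14.7, 15.7 and 15.1 TPM in knockout libraries against 1.21, 2.34 and 1.14 TPM in control ones.

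Several of the largest falls came close to silence. Rhox5, a homeobox gene of the reproductive X-linked cluster that is often active in transformed cells, stood at 73.6, 70.8 and 71.3 TPM in control cells and at 0, 0.12 and 0.28 TPM in knockout cells. Of the 24 Rhox genes listed, only Rhox5 and Rhox2d reached the level for testing; Rhox2d, which has near copies, fell from 2.46, 3.84 and 3.24 TPM to 0.43, 0.37 and 0.43 TPM. Gpr34, a receptor for lysophosphatidylserine that is known from microglia, went from 87.5, 89.5 and 99.7 TPM to 2.82, 3.28 and 2.59 TPM, or 3.14% of the control mean. Fam172a, which encodes a nuclear protein also called Arb2a, went from 10.8, 11.04 and 12.4 TPM to 0.03, 0 and 0.03 TPM. Zfp97, a zinc finger gene, kept 0.25, 0.55 and 0.27 TPM of 6.88, 7.21 and 6.68 TPM. By the same rule set after the values were seen, 5 genes were present only in the control group: Fam172a, P2ry13, Adh4, Fam213b and E130012A19Rik. Adsl, the enzyme adenylosuccinate lyase of purine synthesis, was the most abundant gene among the 25 largest falls: its control libraries held 165, 171 and 166 TPM and its knockout libraries 58.7, 60.9 and 60.1 TPM (log2 fold change -1.47 ± 0.04, adjusted p = 2.37e-15).

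**Figure D2:**
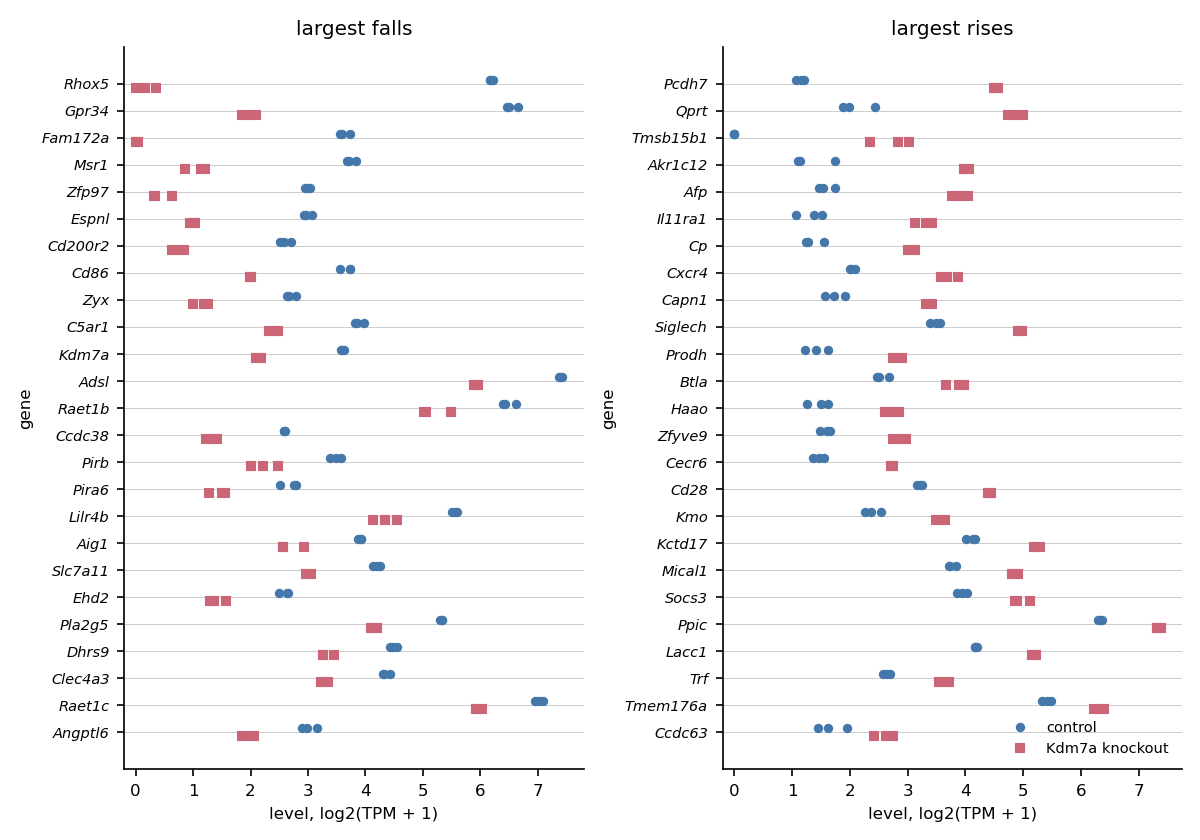
Levels, log2(TPM + 1), of the 25 genes with the largest falls (left) and the 25 with the largest rises (right) in each library. Circles are the 3 control and squares the 3 knockout libraries, set slightly apart in height. No gene shown overlaps between the groups, by the rule that chose them; Rhox5 and Fam172a reach 0 in knockout and Tmsb15b1 in control libraries.

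Other genes among the 25 largest rises and falls had various roles. Zyx, which encodes the focal adhesion protein zyxin, stood at 5.24, 5.34 and 5.95 TPM in control libraries, and the knockout libraries held 1.39, 1.29 and 1.01 TPM. Espnl, an actin-bundling relative of espin, went from 7.43, 6.83 and 6.59 TPM to 0.92, 1.05 and 1.03 TPM, while Mical1, an enzyme that takes actin filaments apart by oxidation, rose from 12.6 ± 0.68 to 27.7 ± 1.2 TPM. The groups did not overlap in any of the 3, by the rule that chose them. Pla2g5, a secreted phospholipase, held 39.6, 39.4 and 38.3 TPM in control libraries and 16.8, 17.4 and 16.1 TPM in knockout libraries (adjusted p = 1.85e-14). Aig1, a hydrolase of fatty acid esters, fell from 14.1, 13.6 and 14.2 TPM to 6.61, 4.94 and 4.92 TPM, and Zfyve9, an adaptor of the TGF-beta receptor, rose from 2.15, 1.80 and 2.06 TPM to 5.69, 6.34 and 6.90 TPM.

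Some further genes with a 2-fold change are given here after their values were seen. Of transcription factor genes, Ets1, best known from lymphocytes, rose from 0.83, 1.06 and 0.70 TPM to 3.73, 4.24 and 4.46 TPM, and Zfp651 from 0.23, 0.19 and 0.13 TPM to 3.78, 3.53 and 3.05 TPM. The homeobox genes Hoxc9 and Shox2 fell, from 3.17, 3.08 and 3.20 TPM to 0.50, 0.64 and 0.31 TPM and from 2.02, 1.86 and 2.43 TPM to 0.41, 0.32 and 0.31 TPM. Hpn, which encodes the membrane protease hepsin, was at 0, 0 and 0.11 TPM in control libraries and at 4.82, 4.08 and 4.69 TPM in knockout libraries. Glutathione transferases, which have close relatives, went both ways: Gstp1 fell from 36.6, 45.8 and 41.4 TPM to 17.99, 20.8 and 19.4 TPM, and Gstm4 rose from 0.85, 0.56 and 0.61 TPM to 4.29, 4.94 and 3.61 TPM.

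Receptors that macrophages use to sense lipids and nucleotides changed in both directions. Of 21 tested purine, adenosine and lipid mediator receptors and related genes, 8 fell (38.1%) and 5 rose (23.8%). Of all tested genes 10.3% and 8.86% did, and the median log2 fold change of the list was -0.06. The members of this list named next were chosen by the size of their change. All of them fell, so they do not show the rises. Gene lists here and below were made with earlier results of these data known, so their shares are descriptive. P2ry12, the ADP receptor of microglia and platelets, went from 3.66, 4.52 and 4.15 TPM to 0.05, 0.12 and 0.05 TPM. Its neighbor P2ry13, another ADP receptor that lies 5.39 kb away on chromosome 3, went from 1.35, 1.26 and 2.07 TPM to 0 in all 3 libraries. S1pr1, a sphingosine 1-phosphate receptor, fell from 30.3 ± 1.7 to 14.4 ± 1.1 TPM, and Entpd1 (CD39), which breaks down extracellular ATP, from 2.84 ± 0.34 to 1.62 ± 0.16 TPM. C5ar1 and C3ar1, the receptors for the complement fragments C5a and C3a, fell together. C5ar1 stood at 14.8, 13.0 and 13.4 TPM in control and at 3.97, 4.57 and 4.30 TPM in knockout cells, and C3ar1 at 10.6, 11.99 and 11.1 TPM and at 4.84, 5.88 and 5.58 TPM. Both belonged to a list of 29 tested chemokine, complement receptor and related genes. In that list 6 rose and 6 fell (20.7% each, against 8.86% and 10.3% of all tested genes). Cxcr4, the receptor for CXCL12, moved the other way and rose from 3.11 ± 0.13 to 12.2 ± 1.4 TPM, while Ccl3, a chemokine gene, fell from 139 ± 1.1 to 109 ± 4.2 TPM (adjusted p = 0.000245).  Cxcl14 rose from 2.77, 2.21 and 2.79 TPM to 4.52, 6.08 and 4.39 TPM, a call that was lost with 0.1 TPM added (adjusted p = 0.0613).

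Scavenger and lectin receptors were split. Of 32 tested, 10 fell and 5 rose (31.2% and 15.6%, against 10.3% and 8.86% of all tested genes). Only 3 rose without the first or without the third knockout library, and the median log2 fold change was 0.0064. Msr1, the class A scavenger receptor that takes up modified lipoproteins, stood at 11.8, 12.1 and 13.4 TPM in control and at 0.81, 1.31 and 1.21 TPM in knockout cells. Cd36, the class B scavenger receptor, rose from 0.21, 0.24 and 0.45 TPM to 1.27, 1.43 and 1.33 TPM. The 2 receptors of modified lipoproteins thus moved in opposite directions, though Cd36 stayed low. Clec4d, a C-type lectin for mycobacterial glycolipid, fell from 25.8 ± 0.93 to 15.5 ± 1.6 TPM, and Clec7a (dectin-1), the receptor for fungal glucan, rose from 2.48 ± 0.28 to 4.01 ± 0.43 TPM. Inhibitory and activating receptors of the paired families fell: Cd200r2 went from 5.01, 5.52 and 4.74 TPM to 0.80, 0.70 and 0.55 TPM, Pirb from 10.2, 10.9 and 9.45 TPM to 3.03, 4.55 and 3.64 TPM, and Lilr4b from 46.1, 47.4 and 44.7 TPM to 16.5, 22.5 and 19.2 TPM. These families hold near-identical copies on chromosomes 16, 7 and 10, and how their shared reads were assigned is not given in the sources used here. The same caution applies to Raet1b and Raet1c, ligands of the killer cell receptor NKG2D, which fell from 88.6 ± 7.4 to 36.0 ± 7.1 TPM and from 129 ± 6.7 to 61.5 ± 2.7 TPM.

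Genes that mark macrophages fell more often than all genes did. Of 26 tested macrophage identity genes, 15 fell and 4 rose (57.7% and 15.4%, against 10.3% and 8.86% of all tested genes), with a median log2 fold change of -0.12. The number that fell was 10 without the second control or without the first knockout library, the lowest over the alternatives. Axl, a receptor kinase for the uptake of dying cells, stood at 3.36, 3.49 and 3.32 TPM in control and at 0.13, 0.12 and 0.09 TPM in knockout cells. Adgre1, which encodes the macrophage antigen F4/80, stood at 47.4, 47.4 and 49.4 TPM and at 27.6, 30.2 and 26.96 TPM, and Lyz2, the lysozyme of myeloid cells, at 3542, 3628 and 3722 TPM and at 2485, 2466 and 2494 TPM. Cebpa and Csf1r rose: Cebpa, a myeloid transcription factor, from 8.52 ± 0.65 to 13.9 ± 0.50 TPM (adjusted p = 1.81e-05), and Csf1r from 443 ± 9.4 to 571 ± 15 TPM (adjusted p = 4.56e-05). Cebpb, its relative in inflammatory activation, stood at 80.4, 75.4 and 72.5 TPM and at 57.5, 43.3 and 40.5 TPM (adjusted p = 0.0282), and this call was lost without any 1 of 5 libraries (highest adjusted p = 0.106, without the third knockout library). Itgam (CD11b), Cd68 and Spi1 passed narrowly, with falls of 0.14, 0.16 and 0.11 on the log2 scale, and each call was lost when certain single libraries were left out (highest adjusted p = 0.154, 0.112 and 0.227, each without the first knockout library). Summed over the 28 genes, identity transcripts made up 10011 to 10110 TPM of a control library and 8586 to 8628 TPM of a knockout library. Most of that fall was in Lyz2, whose mean went from 3631 to 2482 TPM. In bulk RNA, fewer cells of a type and less RNA per cell cannot be told apart.

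Most markers of other cell types were near 0. All 8 epithelial markers were at 0 in all 6 libraries, and 7 of 8 natural killer cell markers were too. T cell markers summed to 12.5 to 13.96 TPM per control library and 24.4 to 24.6 TPM per knockout library. The T cell markers at 1 TPM or more were Lck and Cd28. Lck, a kinase of T cell receptor signaling, held 4.2, 5.22 and 5.49 TPM in control libraries and 3.60, 4.40 and 3.84 TPM in knockout libraries, which overlap, and did not pass. The rise was that of Cd28, a costimulatory receptor, at 8, 8.47 and 8.30 TPM against 20.6, 19.9 and 20.6 TPM, while the defining T cell genes Cd3e, Cd3g and Cd8a were at 0 in every one of the 6. Dendritic cell markers summed to 15.0 to 17.3 TPM and 42.9 to 45.8 TPM. Zbtb46, a dendritic cell transcription factor, held 0.49 to 1.16 TPM over the 6 libraries and was too low to be tested. Siglech, a lectin of plasmacytoid dendritic cells and microglia, stood at 10.3, 10.8 and 9.42 TPM against 29.8, 29.2 and 30.7 TPM, and Btla, an inhibitory receptor of lymphocytes, at 4.53, 5.38 and 4.70 TPM against 11.6, 14.7 and 13.8 TPM. Flt3 and Cd209a, defining genes of dendritic cells, were at 0.

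Adhesion and matrix genes fell more often than they rose (10 and 2 of 27 tested, median -0.06). That is 37.0% and 7.41%, against 10.3% and 8.86% of all tested genes. Spp1 (osteopontin), a secreted matrix protein, stood at 894, 884 and 975 TPM in control and at 469, 473 and 499 TPM in knockout cells (log2 fold change -0.93 ± 0.04, adjusted p = 1.77e-12). It was the most abundant gene named among these falls. Itgb7, an integrin chain, fell from 20.7 ± 0.94 to 10.4 ± 0.47 TPM, and Plaur, the urokinase receptor, from 44.7 ± 2.8 to 26.7 ± 2.0 TPM. Timp1, an inhibitor of matrix proteases, went from 2.04, 2.44 and 2.08 TPM to 0, 0.24 and 0.25 TPM.

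The most uniform movement was in genes of the endoplasmic reticulum. When unfolded proteins gather there, the sensors Atf6, Ern1 (IRE1) and Eif2ak3 (PERK) raise chaperones and folding enzymes, and PERK also feeds the integrated stress response, in which Atf4 raises amino acid genes and the factor Ddit3 (CHOP). Of 39 tested unfolded protein response genes, 29 fell (74.4%, against 10.3% of all tested genes), none rose, and the median log2 fold change was -0.23. The number that fell was between 28 and 30 over all alternatives. The list was made with earlier results of these data known, so its share is descriptive. Hspa5, the chaperone BiP, stood at 1757, 1779 and 1841 TPM in control and at 1188, 1125 and 1190 TPM in knockout cells (log2 fold change -0.62 ± 0.04, adjusted p = 1.18e-10). Fkbp11, a folding enzyme, fell from 60.8 ± 2.3 to 35.1 ± 1.3 TPM, Pdia4, a disulfide isomerase, from 301 ± 5.6 to 196 ± 3.9 TPM, and the secreted factors Creld2 and Manf by 0.69 and 0.63 on the log2 scale. The sensors themselves did not pass. Atf6 averaged 112 and 111 TPM (adjusted p = 0.783), Ern1 14.3 and 14.2 TPM (adjusted p = 0.956), and Eif2ak3 16.0 and 16.6 TPM (adjusted p = 0.67). Xbp1, the factor made active by IRE1, fell from 239, 232 and 250 TPM to 212, 199 and 212 TPM.

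To show the regulatory sequence of these genes, the 250 bases before RefSeq gene starts (GRCm38.p6) were searched on both strands, in 32851 windows of 27025 genes; a gene held an element where any of its windows did. The endoplasmic reticulum stress element (the letters CCAAT, any 9 bases, then CCACG), which ATF6 binds together with NF-Y, was found before 9 of the 33 unfolded protein response genes with a window (27.3%) and before 35 of 27025 genes in all (0.13%). Of those 9, Derl3 was not tested, and the other 8 (Hspa5, Hsp90b1, Dnajc3, Creld2, Pdia6, Calr, Canx and Syvn1) all passed as lower, with a median log2 fold change of -0.41. Of 24 tested genes of the list without it, 15 passed as lower, with a median of -0.19. Among all tested genes with a window, 12 of 9241 held the element (0.13%). The changes of those outside the list were not examined, so the comparison holds within the list alone. A shorter form (ATTGG, any 1 base, then CCACG) stood before Herpud1 alone in the list (3.03%) and before 10 genes in all (0.037%). The amino acid response element, TGATGNAAN (N is any base), to which ATF4 binds with a C/EBP protein, stood before 10 of 36 integrated stress response genes (27.8%) and before 1052 genes in all (3.89%). Of the 8 of them that were tested, 4 fell, and of 26 tested genes without it, 16 fell and 1 rose, so these genes fell with the element and without it. A match describes letters in a window and not a bound site. The windows of the 6 members with the largest falls that hold an element are printed 5' to 3' on the gene's strand, with the element in capitals. The window of Slc7a11 lies inside the annotated span of the gene, which runs to 50499087. In the minus-oriented matches of Creld2, Calr and the second match of Hsp90b1 the capitals read CGTGG first and ATTGG last.
Hspa5 (chr2:34771840-34772089, plus strand): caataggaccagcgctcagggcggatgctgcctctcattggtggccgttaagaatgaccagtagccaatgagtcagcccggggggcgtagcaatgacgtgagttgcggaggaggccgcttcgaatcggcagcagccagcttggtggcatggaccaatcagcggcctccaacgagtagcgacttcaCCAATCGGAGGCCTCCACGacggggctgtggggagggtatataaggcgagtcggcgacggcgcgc
Hsp90b1 (chr10:86705445-86705694, minus strand): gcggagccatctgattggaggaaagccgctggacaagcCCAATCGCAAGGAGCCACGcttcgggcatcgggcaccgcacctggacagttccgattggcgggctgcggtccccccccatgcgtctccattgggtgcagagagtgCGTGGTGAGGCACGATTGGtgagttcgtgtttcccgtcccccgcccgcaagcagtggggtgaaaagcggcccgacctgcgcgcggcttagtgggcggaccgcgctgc
Creld2 (chr15:88819396-88819645, plus strand): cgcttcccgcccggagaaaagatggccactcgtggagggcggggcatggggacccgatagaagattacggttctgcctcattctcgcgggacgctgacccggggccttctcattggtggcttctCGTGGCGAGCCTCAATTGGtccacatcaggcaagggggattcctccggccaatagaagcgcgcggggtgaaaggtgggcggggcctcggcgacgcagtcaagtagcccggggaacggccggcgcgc
Calr (chr8:84846932-84847181, minus strand): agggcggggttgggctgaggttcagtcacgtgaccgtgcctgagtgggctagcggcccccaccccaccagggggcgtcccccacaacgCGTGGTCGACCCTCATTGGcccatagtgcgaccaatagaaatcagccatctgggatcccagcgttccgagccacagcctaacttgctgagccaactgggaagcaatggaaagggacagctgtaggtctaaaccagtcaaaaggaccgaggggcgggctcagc
Dnajc3 (chr14:118937682-118937931, plus strand): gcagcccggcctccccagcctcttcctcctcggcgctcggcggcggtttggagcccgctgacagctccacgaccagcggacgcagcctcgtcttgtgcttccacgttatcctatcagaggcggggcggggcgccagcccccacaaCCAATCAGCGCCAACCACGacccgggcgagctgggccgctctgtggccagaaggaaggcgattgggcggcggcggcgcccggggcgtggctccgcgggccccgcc
Slc7a11 (chr3:50443614-50443863, minus strand): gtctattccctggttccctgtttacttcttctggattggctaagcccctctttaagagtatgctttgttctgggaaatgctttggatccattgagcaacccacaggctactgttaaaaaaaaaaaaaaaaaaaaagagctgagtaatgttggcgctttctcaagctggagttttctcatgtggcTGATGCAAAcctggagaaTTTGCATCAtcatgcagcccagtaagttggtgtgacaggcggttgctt
The levels of these genes moved as follows. Hsp90b1, the chaperone GRP94, stood at 1876, 1871 and 1952 TPM in control and at 1429, 1334 and 1437 TPM in knockout cells. Calr, the chaperone calreticulin, stood at 1668, 1573 and 1636 TPM and at 1285, 1149 and 1246 TPM. Dnajc3, a co-chaperone of BiP, stood at 68.4, 71.1 and 73.6 TPM and at 53.9, 52.3 and 53.7 TPM. In each of the 3 genes, which were chosen for their falls, all knockout libraries lay below all control libraries. Of all tested genes, 37.3% did not overlap in either direction. Slc7a11, the cystine importer, holds 2 amino acid response elements in the window, 1 on each strand. It had the largest fall of the integrated stress response list on the log2(TPM + 1) scale. It went from 18.01, 16.6 and 17.4 TPM to 6.79, 7.35 and 6.94 TPM (log2 fold change -1.19 ± 0.08, adjusted p = 5.89e-10). By the ratio of means, Gdf15 of the same list, at low levels, fell slightly further (0.390 times control, against 0.406 for Slc7a11).

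In the integrated stress response list, 25 of 40 tested genes fell (62.5%, against 10.3% of all tested genes) and 1 rose, with a median of -0.15. The number that fell was between 19 and 26 over the alternatives. Ddit3 stood at 124, 123 and 120 TPM in control and at 65.3, 64.7 and 65.1 TPM in knockout cells. Cth, which makes cysteine, fell from 61.1 ± 1.5 to 34.6 ± 3.5 TPM, and Gdf15, a stress cytokine, from 2.23, 2.16 and 2.79 TPM to 1.12, 0.87 and 0.81 TPM, a call that was lost with 0.1 TPM added (adjusted p = 0.108). Atf4 itself passed as lower, by an amount near the median of the list. It stood at 1175, 1174 and 1146 TPM against 1037, 1077 and 1081 TPM (log2 fold change -0.13 ± 0.03, adjusted p = 0.00163). The gene that rose was Vegfa, a growth factor that hypoxia also raises (44.9, 45.4 and 45.0 TPM against 48.5, 49.4 and 54.2 TPM).

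**Figure D3:**
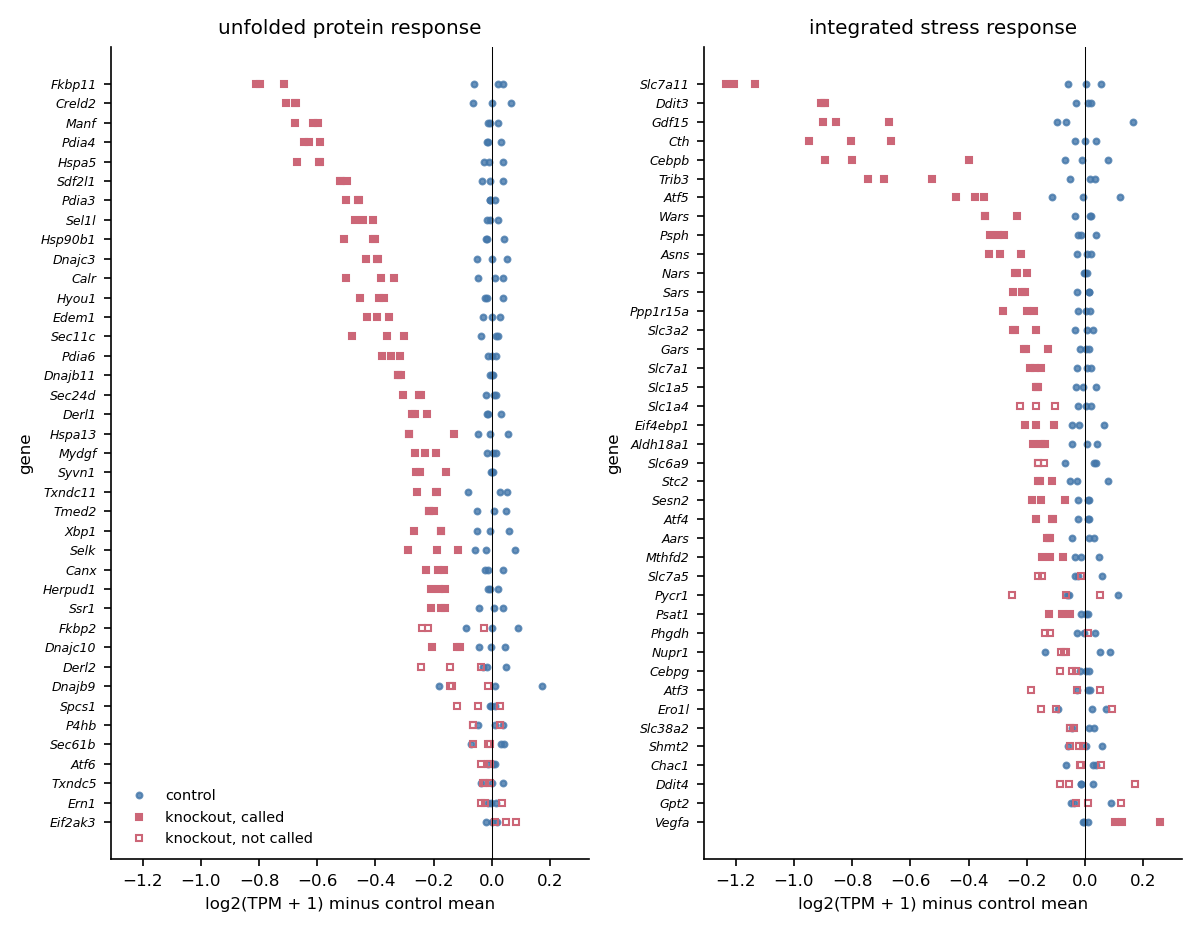
Level of each tested gene of the unfolded protein response (left, 39 genes) and of the integrated stress response (right, 40 genes) in each library, as log2(TPM + 1) minus the control mean of that gene. Circles are control libraries, filled squares are knockout libraries of genes that passed the test, and open squares those of genes that did not. Most squares lie left of 0 in both panels, and Vegfa is the gene that passed to the right.

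Genes of the p53 response fell as well: 12 of 29 tested fell (41.4%, against 10.3% of all tested genes) and 2 rose (median -0.13), with Trp53 itself at 244 ± 14 TPM in control libraries against 252 ± 12 TPM (adjusted p = 0.537). Cdkn1a, the cell cycle inhibitor p21, stood at 219, 218 and 234 TPM and at 148, 170 and 154 TPM. Phlda3, an inhibitor of AKT signaling, fell from 20.8 ± 0.90 to 12.9 ± 1.4 TPM, and Gadd45a, a DNA damage gene, from 4.92, 4.74 and 5.96 TPM to 1.94, 3.05 and 2.58 TPM. Immediate early genes, which growth factors and stress switch on within minutes, fell in 9 and rose in 2 of 30 tested (median -0.09). As shares, 30.0% fell and 6.67% rose, against 10.3% and 8.86% of all tested genes. Fos fell from 13.9 ± 1.1 to 7.83 ± 0.43 TPM and Dusp4, a MAP kinase phosphatase, from 9.95 ± 0.65 to 5.603 ± 0.53 TPM, while Egr1 rose from 3.10 ± 0.19 to 5.52 ± 0.57 TPM.

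Of 27 tested targets of hypoxia-inducible factor, 15 rose and 1 fell (55.6% and 3.7%, against 8.86% and 10.3% of all tested genes, median 0.14). The number that rose was between 10 and 16 over the alternatives. Egln3, the oxygen sensor PHD3 that such factors induce, stood at 5.55, 6.34 and 6.39 TPM in control and at 11.3, 10.8 and 13.3 TPM in knockout cells (log2 fold change 0.85 ± 0.08, adjusted p = 7.03e-08). Most others were small: Bnip3, a mitophagy receptor, rose from 203 ± 18 to 267 ± 25 TPM, Ankrd37 from 33.1 ± 2.2 to 43.7 ± 4.7 TPM, and Pdk1, which holds pyruvate back from the mitochondrion, from 53.6 ± 1.4 to 64.4 ± 1.7 TPM. Hif1a stood at 68.0, 69.1 and 74.1 TPM against 76.3, 76.6 and 79.2 TPM (adjusted p = 0.0386). Of 23 tested glycolysis genes, 7 rose and 2 fell (30.4% and 8.7%), and of 22 citric acid cycle genes 3 rose and 1 fell (13.6% and 4.55%). Of 24 cholesterol synthesis genes 5 rose and 2 fell (20.8% and 8.33%). The cholesterol rises numbered 2 without the first control library and 3 without the second or the third knockout library. Among all tested genes 8.86% rose and 10.3% fell. The falls in glycolysis were of Hk3, the myeloid hexokinase (52.8 ± 2.2 to 34.1 ± 1.4 TPM), and Slc2a3, a glucose transporter (29.3 ± 1.2 to 22.8 ± 1.8 TPM), and Hk1 rose from 88.7 ± 3.5 to 106 ± 5.6 TPM.

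Enzymes that break down tryptophan by way of kynurenine toward NAD rose at several steps. Kmo, which hydroxylates kynurenine, stood at 4.15, 3.81 and 4.84 TPM in control and at 10.8, 11.5 and 10.2 TPM in knockout cells. Haao, the next oxygenase, stood at 1.85, 2.07 and 1.39 TPM and at 5.10, 5.82 and 6.24 TPM, and Qprt, which forms the nucleotide precursor of NAD from quinolinate, at 2.95, 4.42 and 2.68 TPM and at 31.0, 28.7 and 25.8 TPM. The adjusted p-values of the 3 genes were 5.82e-07 for Kmo, 3.88e-07 for Haao and 1.77e-12 for Qprt. Kynu, the enzyme between Kmo and Haao, was at 0.06 TPM or less in all 6 libraries, and Ido1, which opens the pathway, was listed at 0. In the whole list of 13 tested NAD and tryptophan genes, 5 rose (3 without the third knockout library) and 1 fell. As shares, 38.5% rose and 7.69% fell, against 8.86% and 10.3% of all tested genes.

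Genes of the antioxidant factor NRF2 moved both ways. Of 22 tested, 10 rose and 5 fell (45.5% and 22.7%, against 8.86% and 10.3% of all tested genes). Only 6 rose without the third control library or without the second knockout library. Me1, malic enzyme, rose from 35.6 ± 1.6 to 49.1 ± 1.9 TPM. Apart from Slc7a11, the falls were led by Akr1b8, an aldose reductase relative (32.6 ± 1.7 to 22.8 ± 0.65 TPM), and Srxn1, sulfiredoxin (30.3 ± 0.85 to 23.7 ± 1.1 TPM). Of 42 tested lysosome genes, 16 fell and 4 rose (38.1% and 9.52%, against 10.3% and 8.86% of all tested genes). Without the first knockout library 10 fell. The proteases Lgmn, Ctsl and Ctsd fell from 475 ± 12 to 359 ± 4.3 TPM, from 218 ± 4.1 to 162 ± 0.29 TPM and from 648 ± 21 to 524 ± 8.2 TPM. In lipid handling, Plin2, the coat protein of lipid droplets, fell from 94.4 ± 4.4 to 57.2 ± 1.9 TPM (adjusted p = 8.81e-12). Abcg1, a cholesterol exporter, rose from 15.7 ± 1.1 to 21.0 ± 0.99 TPM. Of 23 such genes 3 rose and 3 fell (13.0% each, against 8.86% and 10.3% of all tested genes).

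Of 21 tested genes for class I antigen presentation, 8 rose (38.1%) and 1 fell (4.76%), with a median of 0.06, against 8.86% and 10.3% of all tested genes. Psmb9, a subunit of the immunoproteasome, stood at 56.9, 60.0 and 58.0 TPM in control and at 80.8, 91.5 and 85.6 TPM in knockout cells, and Psmb8, another, rose from 230 ± 3.2 to 301 ± 7.6 TPM. The peptide transporters Tap1 and Tap2 rose by 0.37 and 0.32 on the log2 scale. H2-K1 averaged 387 and 401 TPM (adjusted p = 0.403) and H2-D1 652 and 620 TPM (adjusted p = 0.0665), both members of a family of close copies. Of 15 tested class II genes, 3 rose and 2 fell (20.0% and 13.3%), with a median of 0.0012. H2-Ab1, a class II beta chain, stood at 0.53, 0.44 and 0.34 TPM in control and at 4.32, 3.94 and 5.13 TPM in knockout cells (adjusted p = 2.53e-12). Its partner chain H2-Aa was at 0 in the control libraries and at 0.10, 0.18 and 0.41 TPM in knockout libraries (adjusted p = 0.0604), and Cd74, the invariant chain, averaged 506 and 504 TPM (adjusted p = 0.94).

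Genes that define the polarized states were mostly low without stimulation. Of the M1-associated list, 2 of 24 tested genes rose and 4 fell (8.33% and 16.7%, against 8.86% and 10.3% of all tested genes). Cd86, a costimulatory ligand, stood at 10.7, 12.2 and 12.3 TPM in control and at 2.96, 3.04 and 2.99 TPM in knockout cells (adjusted p = 3.71e-13). Its receptor gene Cd28 rose in the same cells, as given above. Nos2, Il6 and Il1b were at or below 1.75, 0.51 and 0.49 TPM in all 6 libraries and did not pass. Tnf averaged 73.7 ± 1.5 and 70.4 ± 0.65 TPM (adjusted p = 0.497). Cxcl10, an interferon-induced chemokine, overlapped between the groups (adjusted p = 0.0307), and the call was lost without the second knockout library (adjusted p = 0.183) and without the first control library and without the third. Of the M2-associated list, 6 of 21 tested genes rose and 2 fell (28.6% and 9.52%). Only 3 rose without the third control or without the second knockout library. Arg1, arginase of alternatively activated macrophages, stood at 0.34, 0 and 0.07 TPM in control and at 0.59, 4.83 and 6.58 TPM in knockout cells. The first knockout library was far below the other 2, and the call (adjusted p = 0.0272) was lost without any 1 of 4 libraries and in a fit of these 6 libraries alone (adjusted p = 0.131). Mrc1, the mannose receptor, held 0.07, 0.15 and 0.14 TPM in control libraries and 0.24, 0.32 and 0.27 TPM in knockout libraries; it did not pass (adjusted p = 0.123) but did without the variance trend (0.0149) and with 0.1 TPM added (0.0108). Ccl22 and Il10 were at or below 0.12 and 0.10 TPM and did not pass, and Chil3 and Retnla were at 0.

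In the interferon-stimulated list, 7 of 55 tested genes rose and 2 fell (12.7% and 3.64%, against 8.86% and 10.3% of all tested genes). The number that rose was 15 without the first knockout library and 3 without the second, so the count rests on single libraries. The interferon-stimulated response element (GAAA, any 2 bases, then GAAA) stood in the 250-base window of 19 of 42 such genes (45.2%) and of 936 genes in all (3.46%). Of those 19, 1 rose and 2 fell, with a median log2 fold change of 0.05. Of 23 tested genes of the list without it, 2 rose and 0 fell, with a median of 0.09. Dhx58, an RNA sensor also called LGP2, rose from 15.1 ± 0.36 to 22.7 ± 2.2 TPM (adjusted p = 6.63e-07), and Ly6e, a surface protein that limits viral entry, from 422 ± 26 to 552 ± 27 TPM. Cell cycle genes rose in 8 (17.8%, against 8.86% of all tested genes) and fell in 1 of 45 tested. The rises numbered 14 when only the 6 unstimulated libraries were fitted, and 3 to 5 when 1 library other than the first knockout library was left out. In the list of Jumonji demethylases and histone H3 lysine methyltransferases, 4 of 33 tested genes fell, Kdm7a among them, and 5 rose. The shares, 12.1% and 15.2%, stood against 10.3% and 8.86% of all tested genes. Apart from Kdm7a, the largest fall was of Kdm5b, a demethylase of active promoters (8.65, 8.28 and 8.46 TPM against 4.95, 4.99 and 5.96 TPM, adjusted p = 5.92e-06), and Kdm4a fell from 63.4 ± 3.2 to 52.6 ± 0.63 TPM. The rises in that list were at most 0.24 on the log2 scale, and their number was 1 to 3 without any 1 of the libraries other than the first control library. Of 44 tested oxidative phosphorylation genes 6 rose and 2 fell (13.6% and 4.55%, against 8.86% and 10.3% of all tested genes). The rises numbered 2 or 3 without any 1 of the libraries other than the third control library. They were at most 0.26 on the log2 scale. Of 48 cytosolic ribosomal protein genes, 3 passed as higher (6.25%, against 8.86% of all tested genes), and none without the variance trend, 1 with either other scaling and 1 without the first control, the first knockout or the third knockout library.

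**Figure D4:**
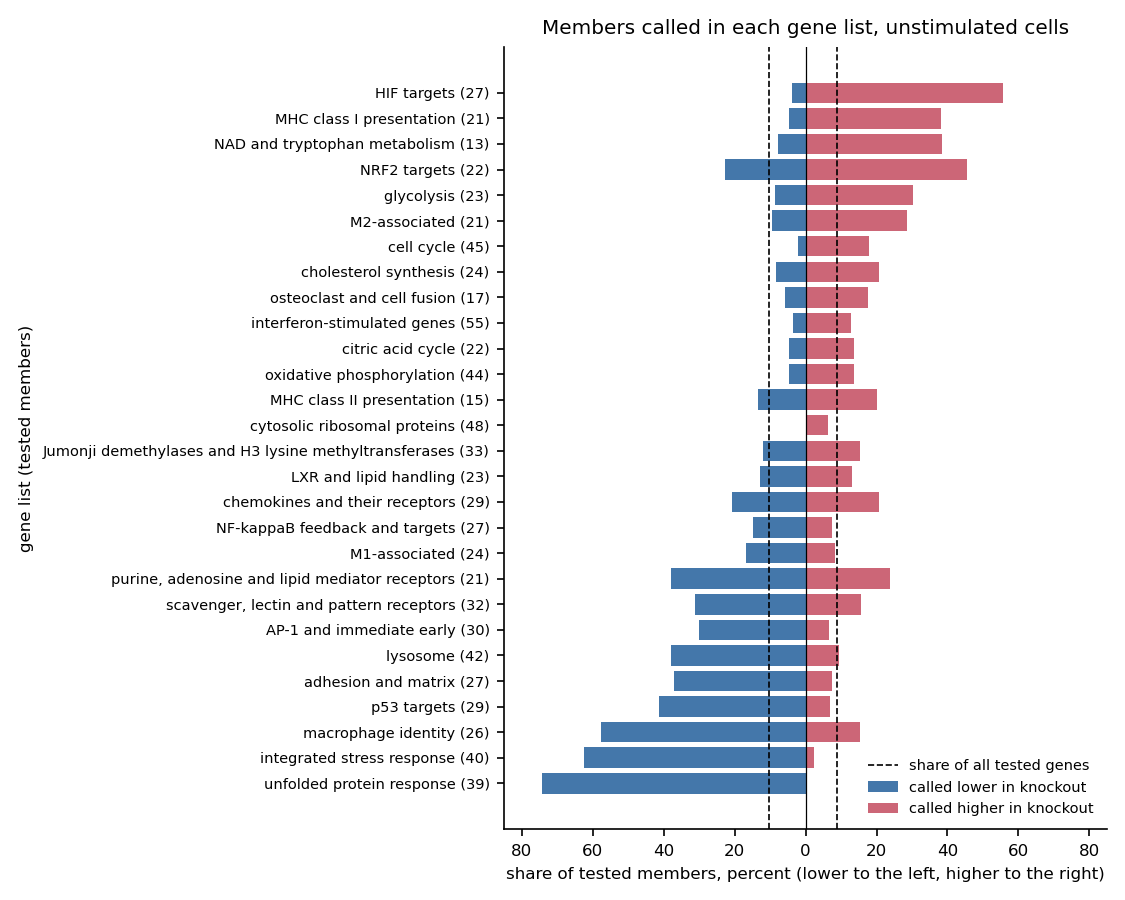
Share of tested members that passed the test in each gene list, lower in knockout cells to the left and higher to the right, with the number of tested members beside each name. Dashed lines mark the shares of all 11548 tested genes, 10.3% and 8.86%. The lists were made with earlier results of these data known. The unfolded protein response (74.4% lower) and the integrated stress response (62.5% lower) stand at the bottom and targets of hypoxia-inducible factor (55.6% higher) at the top.

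Genes with a 2-fold change lay on all 20 chromosomes other than Y, but not evenly. The X chromosome held 4 that rose and 5 that fell among 339 tested genes, and chromosome 2 held 1 and 2 among 921. On the X chromosome 14.7% of tested genes passed as lower and 8.55% as higher, against 10.3% and 8.86% of all tested genes. Median log2 fold changes of the 20 chromosomes ran from -0.02 to 0.03. Of 100 genes with a 2-fold change and a known position, 14 had another within 500 kb. The same share was not computed for all tested genes, so the count does not show clustering. On chromosome 16, Cd200r4 and Cd200r2 fell while Btla, 308 kb from Cd200r2, rose. P2ry12 and P2ry13 fell together, as did Ehd2 and C5ar1, 279 kb apart on chromosome 7, and Pirb, Pira1 and Pira2 on the same chromosome. On the X chromosome, Rhox2d and Rhox5, 257 kb apart, fell, and the overlapping Tmsb15l and Tmsb15b1 rose. Several of these neighbors belong to families of close copies, so shared reads could make them move together.

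Separate libraries of the same 2 lines under stimulation show which of these differences were also there after 48 h with interferon gamma at 2 ng/ml plus lipopolysaccharide at 0.1 µg/ml (M1), or with the cytokines IL-4, IL-13 and IL-10, each at 20 ng/ml, plus human TGF-beta 1 at 2 ng/ml (M2). Of the 103 genes with a 2-fold change, 82 passed under M1, all in the same direction (79.6%, against 50.3% of all tested genes). Under M2, 95 passed (92.2%, against 30.9%), 93 in the same direction. A change of 2-fold or more in the same direction was shared by 47 genes with M1 (45.6% of the 103 and 20.1% of the 234 there, which are 2.03% of all tested genes) and by 67 with M2 (65.0% of the 103 and 44.4% of the 151 there, 1.31% of all). The 2 that turned were Siglech and Dhrs9, a retinol dehydrogenase. Siglech was 2.94-fold higher in knockout cells without stimulation and lower under M2 (5.95 against 2.88 TPM), and Dhrs9 fell from 21.5 to 9.07 TPM without stimulation and was higher under M2 (43.2 against 66.7 TPM). Of all 2217 genes that passed without stimulation, 1421 passed under M1 (64.1% of the 2217 and 24.5% of the 5811 there), 289 of them in the opposite direction, and 1240 under M2 (55.9%, and 34.7% of the 3570 there), 170 of them opposite. The share of higher genes among the M1 calls rose from 33.6% to 47.1% with trimmed-mean scaling and to 48.8% with median-ratio scaling, and among the M2 calls from 41.0% to 54.0% and 55.3%; for the unstimulated calls it was 46.1%, 49.1% and 46.8%.

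Pcdh7, Gpr34, Fam172a and Rhox5 differed strongly in all 3 states. Pcdh7 had log2 fold changes of 3.39, 4.10 and 4.51 (M0, M1, M2), Gpr34 of -4.58, -3.78 and -5.30, and Kdm7a itself of -1.47, -1.85 and -1.65. The fall of Hspa5 and Creld2 differed between the states (adjusted p of the difference in limma, for Hspa5 2.28e-08 with M1 and 1.66e-07 with M2, for Creld2 1.13e-08 and 9.56e-07). Hspa5 had -0.62 without stimulation, -0.01 under M1 (adjusted p = 0.915) and -0.04 under M2 (adjusted p = 0.426), and Creld2 -0.69, 0.01 (adjusted p = 0.887) and -0.15 (adjusted p = 0.00644). Slc7a11, in contrast, had -1.19, -1.26 and -1.07. Kmo was 2.54-fold higher without stimulation, with log2 fold changes of 0.11 under M1 (adjusted p = 0.484) and -0.03 under M2 (adjusted p = 0.874).

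The size of the knockout difference was compared between states as an interaction term, which uses the same unstimulated libraries again. Of the 103 genes, 75 differed between M1 and unstimulated cells (36.0% of all tested genes did) and 42 between M2 and unstimulated cells (14.1%). The 103 were chosen for a large unstimulated difference, which the term subtracts, so their counts cannot be set against those shares. Where knockout cells were near 0 in both states, the term followed the control level: Fam172a averaged 11.4 TPM in unstimulated and 5.82 TPM in M1 control cells. The share of positive differences among all calls was 33.6% for M1 (46.4% with trimmed-mean and 49.1% with median-ratio scaling), and for M2 it rose by over 10 percentage points (60.3% and 63.3%, from 815 positive and 814 negative).

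**Figure D5:**
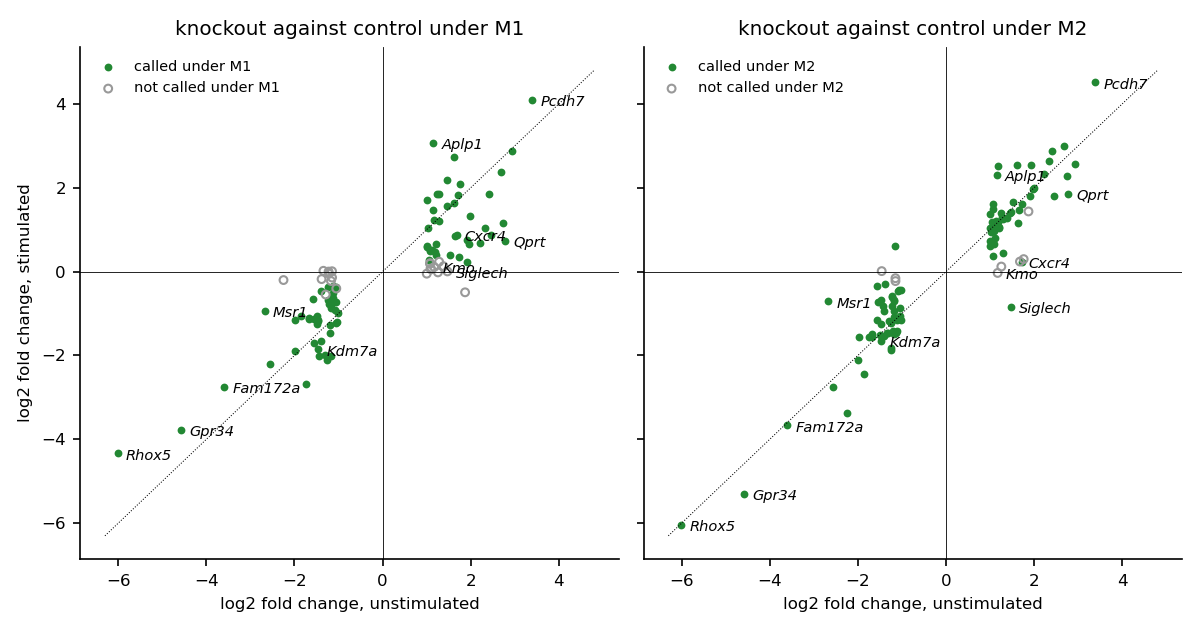
Log2 fold change under M1 (left) or M2 (right) against that without stimulation for the 103 genes with a 2-fold change without stimulation. Filled points passed the test in the stimulated state, open points did not, and the dotted line marks equal change. Of the points, 82 passed under M1 and 95 under M2, and Siglech and Dhrs9 passed under M2 with the opposite sign.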

How the data were processed

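Poly(A) RNA from RAW264.7 cells was sequenced as 18 libraries in 6 groups of 3 (control or Kdm7a knockout line, each unstimulated, M1 or M2). The authors deposited 1 table of TPM values per gene symbol, with 2 decimals; per the submitters' processing notes, Trim Galore and the mm10 build were used. How TPM values were computed is not given in the sources used here, and TPM keeps no depth, so no counting error can be given. The 11548 of 24411 genes that reached 1 TPM in 3 or more libraries were analysed as log2(TPM + 1), computed here from the deposited values, in limma 3.58.1 (R 4.3.3) with 1 mean per group, a mean-variance trend and robust moderation, two-sided, with Benjamini-Hochberg adjustment over all 11548 genes. A gene was called at an adjusted p below 0.05, and a 2-fold change is a log2 fold change of 1 or more in size. The fit was tested on simulated data with independent noise. Far fewer genes changed there than were called here, none from a low level and none by as little as most called genes. The simulation therefore does not bear on small changes or on genes at low levels. Gene positions and the 250 bases before each start came from RefSeq (GRCm38.p6), where 11498 tested symbols matched.

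Named genes are Kdm7a, its relatives and neighbors, set markers, the 25 largest rises and falls among called genes at 5 TPM or more in the higher group without overlap, up to 5 called members of each list, and the 8 largest differences in each direction between states. The gene lists, their members and this choice were made with earlier results of these data known. Libraries with the same replicate number did not deviate together in the 6 unstimulated or the other libraries (correlations of deviations from group means -0.138 to 0.0716), so numbers were not taken as pairs. Alternatives changed the scaling, the added amount, the filter, the variance trend, the block, the libraries fitted and each library in turn. Trimmed-mean and median-ratio scaling factors were computed on the TPM values with code written for this work.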

Additional observations from a re-analysis of the deposited data

Results flagged for a closer look

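These results are set apart because the knockout difference itself differed between a stimulated state and unstimulated cells, by the interaction term of limma at an adjusted p below 0.05. With groups of 3, single libraries were not tested as outliers. The term passed for 4161 genes with M1 and for 1629 with M2. Values are differences of log2 fold changes, stimulated minus unstimulated, for the 8 largest in each direction. Ccl2, Ccl12, Stfa3, Ghrh, Il1r2 and Ccr7 were at 0 TPM in both unstimulated groups, so their term repeats the knockout difference under M1 and adds nothing to it. Il1rn, Plk2, S100a8, Ccl22 and Tnfrsf9 were below 0.4 TPM in both unstimulated groups on average. So were Anpep, AA467197, H2-Ea-ps, Serpina3g and Spsb1, which are given below for M2, and Flt1 and Cystm1 were at 0.50 TPM or less. For all of these the term mostly restates the knockout difference in the stimulated state.

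With M1, the genes in which the knockout difference was more negative were led by inflammatory genes. The chemokine gene Ccl2 had a difference of -3.55, with means of 114 TPM in stimulated control and 8.89 TPM in stimulated knockout cells, and Ccl12, a relative, had -2.30 (24.3 and 4.19 TPM). Il1rn, the interleukin 1 receptor antagonist, had -3.16 (320 and 29.8 TPM). Stfa3, a cystatin with close copies, had -3.01, the kinase gene Plk2 -2.85 and S100a8, a subunit of calprotectin, -2.29. Slc40a1, the iron exporter ferroportin, had -2.18: it was higher in knockout cells without stimulation (3.78 and 6.70 TPM) and lower under M1 (20.9 and 6.78 TPM). For Qprt the difference was -2.05, from a log2 fold change of 2.78 without stimulation to 0.73.

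In the positive direction with M1, the chemokine gene Ccl22 had 2.94 (5.01 TPM in stimulated control and 47.4 TPM in stimulated knockout cells), Ghrh, a releasing hormone, 2.87 (4.32 and 36.8 TPM), and Tnfrsf9, the costimulatory receptor 4-1BB, 2.45 (40.3 and 238 TPM). Il1r2, a decoy receptor of interleukin 1, had 1.95, Aplp1 1.91, the lipid receptor gene Gpr132 1.81 (28.6 and 88.6 TPM) and Ccr7, a receptor that guides cells to lymph nodes, 1.76 (11.4 and 41.0 TPM). Msr1 had 1.74, since its log2 fold change was -2.67 without stimulation and -0.93 under M1.

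With M2, the most negative difference was that of Siglech, -2.31, whose log2 fold change was 1.47 without stimulation and -0.84 under M2. Snora65, a small nucleolar RNA that poly(A) libraries capture poorly, had -1.91 (adjusted p = 0.00324, limma). Serpina3g, a protease inhibitor with close copies, had -1.56 and Spsb1, a ubiquitin ligase adaptor, -1.55. Cp had -1.49 (log2 fold changes of 1.72 and 0.23), Il4i1, an amino acid oxidase, -1.46, Cxcr4 -1.44 (1.68 and 0.24) and Kmo -1.20. In the positive direction, Flt1, a receptor of vascular growth factors, had 2.33 (11.5 TPM in stimulated control and 56.7 TPM in stimulated knockout cells), Cystm1 2.16 (4.83 and 24.3 TPM), Anpep, the aminopeptidase CD13, 2.01 (11.8 and 54.3 TPM) and Msr1 1.96. The chemokine gene Ccl4 had 1.94 (30.7 and 136 TPM), H2-Ea-ps, a class II pseudogene, 1.92 (7.41 and 39.1 TPM), Tgm2, a transglutaminase of alternative activation, 1.83 (78.3 and 350 TPM) and AA467197, a small mitochondrial protein gene, 1.80 (3.60 and 13.7 TPM).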

How the results depend on the processing

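The count of 2-fold changes without stimulation depended on the amount added before the logarithm and on the filter: 103 genes became 224 with 0.1 TPM added, 22 with 5 TPM added and 66 with a filter of 5 TPM, which removes the lower genes from the test. The 234 and 151 changes of 2-fold under M1 and M2 became 491 and 284 with 0.1 TPM added and 92 and 57 with 5 TPM added. No result reversed its direction. The counts of called genes moved by less than 1.5 times under every alternative run. Without stimulation, leaving out 1 library gave 1689 to 2008 called genes (723 to 921 higher, 929 to 1087 lower) and 101 to 107 changes of 2-fold. Under M1 it gave 5243 to 5318 genes, under M2 2766 to 3759, and for the differences between states 3741 to 3981 (M1) and 1290 to 1984 (M2). With the replicate number as a block, 2207 genes were called against 2217; the labels do not say that same-numbered libraries belong together. Of 103 genes with a 2-fold change, 101 were called when only the 6 unstimulated libraries were fitted and 99 to 103 when 1 library was left out. For named genes and list counts, 5250 results under the alternatives kept their direction and call or count, 207 were no longer called, 10 became called, and 173 counts or medians moved by more than the limit set for them (1.5 times for a count); the causes were not tested. TPM gives no depth, so what depth limits could not be measured.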
